A study of Homo sapiens with 8 samples.

Results

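Glucose enters a cell through facilitative transporters and is phosphorylated, isomerised, phosphorylated again and split before the energy-yielding steps of glycolysis begin. The genes described here serve these opening steps: the transporters SLC2A1 and SLC2A3, the hexokinases HK1 and HK2, the isomerase GPI, the phosphofructokinase subunits PFKL, PFKM and PFKP, and the aldolases ALDOA and ALDOC. They were chosen by name for their place in the pathway, with earlier results of these data known. Every entry of the deposited table whose RefSeq transcript was paired with any of their symbols was used. This gave 10 genes and 18 transcripts, of 14524 genes that could be named in a table of 24812 transcripts. SQ20B is an established cell line from a head and neck squamous cell carcinoma. Polyadenylated RNA was sequenced from 4 replicates kept in normoxia and 4 replicates kept in hypoxia (0.5% O2 for 16 h), all grown in high-glucose DMEM with serum and glutamine, and all from 1 cell line. The table holds 1 value per transcript and condition, the authors' FPKM over the replicates of that condition. FPKM divides the fragment count of a transcript by transcript length and by library size, so that levels of different genes can be set side by side. The spread between replicates was not analysed here, and depth behind each value is unknown from the table. Every difference below is therefore a description of 2 pooled values, with no error and no test.

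Low oxygen stabilises the HIF transcription factors, and genes of glucose uptake and glycolysis are among their classical targets. Cells with little oxygen draw more of their ATP from glycolysis, which yields less of it per glucose than respiration. Most steps are served by several genes that differ in tissue distribution and kinetics, so that the mixture of isoenzymes can differ between conditions as well as the amount.

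Of the 10 genes, 9 were higher in hypoxia than in normoxia, against 43.6% of the 12103 genes whose mean FPKM reached 0.5, and PFKM alone was lower. SLC2A3, ALDOC and HK2 showed the widest differences, at 19.3-fold, 13.2-fold and 5.23-fold. SLC2A1, GPI and PFKP stood between 2.08-fold and 2.57-fold higher, and HK1, ALDOA and PFKL between 1.67-fold and 1.98-fold higher. Fold and log2 differences were taken after adding 0.1 FPKM to both values, which understates the difference of genes with low FPKM. Summed over all members, FPKM was 222 in normoxia and 597 in hypoxia, a ratio of 2.69.

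**Figure D1:**
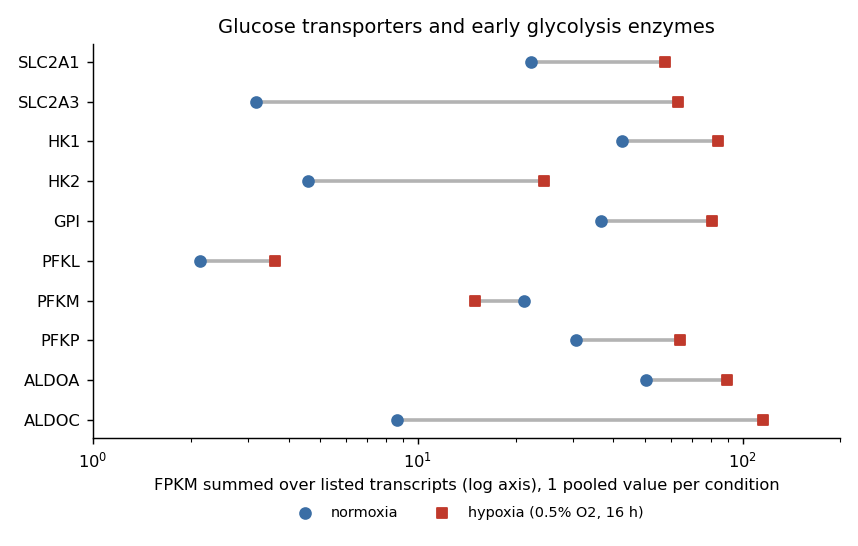
FPKM summed over the listed transcripts of each gene (log axis), with 1 pooled value in normoxia (circles) and 1 in hypoxia (squares) joined by a line. SLC2A3, HK2 and ALDOC had the longest lines towards higher values in hypoxia, and PFKM is the gene whose hypoxia value lies to the left.

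A gene was counted as past the fold when it differed at least 2-fold and its mean FPKM over both conditions reached 0.5. By this rule 6 of the 10 members were higher in hypoxia, against 3.21% of 12103 genes, and 0 members were lower, against 2.62%. At a fold of 1.5, 9 members were higher, against 9.94% of all genes. All members lay above the limit in both conditions, with PFKL the lowest at 2.14 and 3.64 FPKM. The median log2 difference was 1.09 over the members and -0.07 over all genes. In the order of differences over all genes, SLC2A3 ranked 4, ALDOC 7 and HK2 49, while SLC2A1 ranked 195 and GPI 290. Among these genes, 8 members lay within the highest 5% of differences and 3 within the highest 1%, whereas PFKM lay at percentile 15.2.

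**Figure D2:**
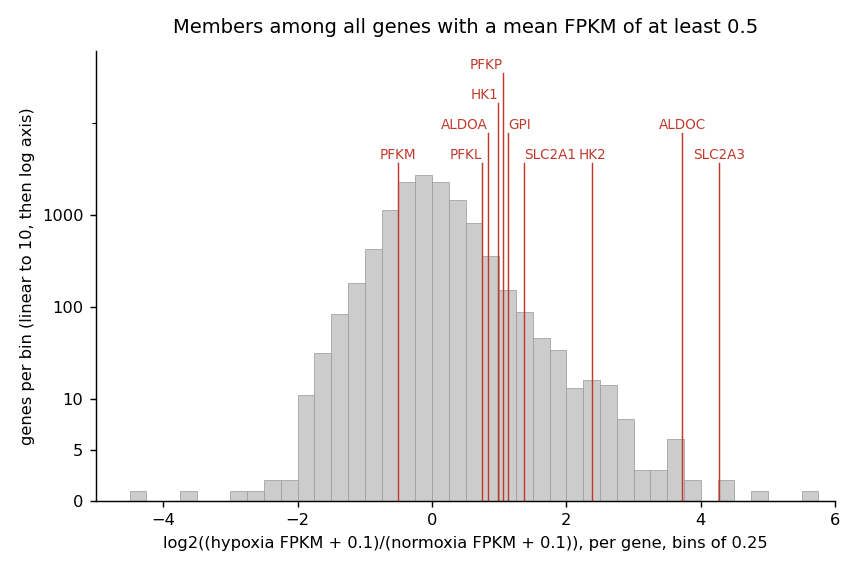
Number of genes (axis linear to 10, then logarithmic) in bins of 0.25 of the log2 difference between hypoxia and normoxia, for all 12103 genes whose mean FPKM reached 0.5. Red lines mark the members, of which PFKM lies left of 0 and ALDOC and SLC2A3 lie farthest right, at 3.72 and 4.27.

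The values of the whole table summed to 536005 FPKM in normoxia and 458431 FPKM in hypoxia. Scaling both conditions to the same sum adds 0.23 to the log2 ratio of FPKM, slightly less for low genes once 0.1 FPKM is added, and moves the median of all genes from -0.07 to 0.15. With that scaling 8 members were at least 2-fold higher, against 5.76% of 12243 genes. HK1 and ALDOA, at 1.21 and 1.06, came to lie above the limit, and PFKM stayed lower in hypoxia at -0.28. FPKM is scaled to library size, so neither sum measures the number of cells or the RNA per cell. In RNA from a whole culture, fewer cells with a transcript and less of it per cell cannot be told apart.

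The line's epithelial label was set against marker genes. Of 8 squamous epithelial markers 6 were listed, and their summed level was 875 FPKM in normoxia and 861 FPKM in hypoxia. KRT5, a keratin of basal epithelium, stood at 398 and 442 FPKM and TP63, a regulator of squamous cells, at 42.8 and 44.6 FPKM, while EPCAM, an epithelial adhesion protein, stood at 317 and 233 FPKM (log2 difference -0.45) and the keratin KRT6A at 5.10 and 3.26 FPKM (-0.63). CDH1 and KRT17 were higher, at 0.43 and 0.16, and KRT14 and EGFR were not analysed here. None of 4 blood markers and none of 3 fibroblast markers had an entry analysed here. Of 3 endothelial markers CDH5 was listed, at 4.78 and 2.83 FPKM. The neural markers SYT1 and SNAP25 summed to 2.56 and 2.95 FPKM. Known hypoxia-induced genes were higher in the hypoxia column: VEGFA, the angiogenic growth factor, stood at 21.3 and 43.2 FPKM (log2 difference 1.02), and CA9, a surface carbonic anhydrase, at 0.694 and 21.6 FPKM (4.77).

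The DNA upstream of RefSeq start sites of the members was searched for the core of the hypoxia response element to which HIF binds. RefSeq start sites of assembly GRCh38.p14 gave 27 windows for 9 members, and SLC2A3 had no window in the table of promoters used. The letters ACGTG or GCGTG, on either strand and with overlapping matches counted once, occurred within 250 bases upstream in 12 of the 27 windows (44.4%), close to the share over all 35116 windows of the table (43.2%). HK1 and PFKM gave 7 windows each, some of them overlapping, and 1 of each 7 held a match, so these genes weigh most in that share. Of the 9 members, 8 had a match in at least 1 window, and a like count over all genes was not made. At least 3 matches were present in 4 of the 27 windows (14.8%), against 5.56% of all windows. At least 4 matches were present in 2 member windows, 1 of HK2 and the 1 of ALDOC, and in 1.85% of all windows. These windows and the other HK2 window are shown as member windows with many matches and, for contrast, that of SLC2A1 without any. The number of matches did not follow the size of the difference throughout: a PFKP window held 3 matches and each of the 3 ALDOA windows held 1, while these genes were 2.08-fold and 1.78-fold higher and SLC2A1, with no match, 2.57-fold higher. That PFKP window, at chr10:3146551-3146800, lies inside the stretch listed for PFKP, downstream of its start at chr10:3109712. The other PFKP windows held 0, 0 and 1. Each window shown was placed by its single exact match in GRCh37 and is printed 5′ to 3′ on the strand of the gene, ending before any exon of that gene in the GENCODE annotation, with matches in capitals.
HK2 upstream window at chr2:75061004-75061253, plus strand: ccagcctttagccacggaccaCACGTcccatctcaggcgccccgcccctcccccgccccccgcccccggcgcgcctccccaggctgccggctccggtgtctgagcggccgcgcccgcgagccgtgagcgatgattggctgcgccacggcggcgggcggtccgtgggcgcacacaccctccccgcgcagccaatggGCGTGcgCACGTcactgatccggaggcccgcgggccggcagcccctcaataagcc
HK2 second window at chr2:75062047-75062296, plus strand: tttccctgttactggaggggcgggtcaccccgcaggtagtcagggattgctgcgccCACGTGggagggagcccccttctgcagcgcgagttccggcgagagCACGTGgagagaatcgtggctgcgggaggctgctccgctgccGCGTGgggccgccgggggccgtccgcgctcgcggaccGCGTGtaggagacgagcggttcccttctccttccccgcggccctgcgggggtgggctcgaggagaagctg
ALDOC window at chr17:26903967-26904163, minus strand: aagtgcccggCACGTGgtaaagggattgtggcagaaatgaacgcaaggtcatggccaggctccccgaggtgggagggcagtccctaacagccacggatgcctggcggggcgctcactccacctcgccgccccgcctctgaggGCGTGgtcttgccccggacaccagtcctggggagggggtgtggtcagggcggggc
SLC2A1 window at chr1:43424565-43424789, minus strand: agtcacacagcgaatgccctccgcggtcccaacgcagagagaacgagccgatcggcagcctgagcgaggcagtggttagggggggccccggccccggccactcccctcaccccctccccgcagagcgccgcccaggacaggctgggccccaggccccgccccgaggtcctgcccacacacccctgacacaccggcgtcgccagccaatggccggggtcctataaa
The second HK2 window held CACGTG at 2 places, starting 194 and 149 bases upstream of its RefSeq start, and GCGTG at 2 places closer to the start. The first HK2 window held GCGTG and CACGT side by side, starting 55 and 48 bases upstream, and CACGT once more 229 bases upstream. In ALDOC, CACGTG started 240 and GCGTG 108 bases upstream. The other 2 matches lay in the last bases before the RefSeq start, which an ALDOC exon covers and which are not printed. The stretch listed for the measured ALDOC transcript, which begins at chr17:26903951 on the minus strand, covers part of these bases. A match is a description of letters only. The stretch listed for HK2 starts at chr2:75059782 (hg19, plus strand), so both HK2 windows lie inside it, downstream of that start. The RefSeq starts used for the windows can thus differ from those of the hg19 transcripts measured. Which start site the sequenced transcripts used was not analysed here.

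The glucose transporters came to 25.5 FPKM in normoxia and 121 FPKM in hypoxia, a 4.74-fold ratio of the sums. SLC2A1 encodes the broadly expressed basal transporter GLUT1, and SLC2A3 encodes GLUT3, a high-affinity transporter best known from neurons. SLC2A1 (listed stretch chr1:43391046-43449029, hg19) stood at 22.3 FPKM in normoxia and 57.5 FPKM in hypoxia, a log2 difference of 1.36. That stretch also holds SLC2A1-DT, and coordinates given in brackets after other gene names are likewise those of listed stretches. SLC2A3 (chr12:8071824-8088892) stood at 3.18 FPKM and 63.2 FPKM, a log2 difference of 4.27. SLC2A1 was 7.02 times SLC2A3 in normoxia and 0.910 times in hypoxia, where the pair was nearly level and its order cannot be told from pooled values. SLC2A3 made up 12.5% of their sum in normoxia and 52.3% in hypoxia, and it gave 63.0% of the difference between the sums. In the order of levels over all genes, SLC2A3 moved from percentile 28.5 to percentile 89.3 and SLC2A1 from 69.9 to 88.1.

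SLC2A14, a close copy of SLC2A3 beside it on the chromosome, was listed at 0.110 FPKM and 1.80 FPKM (log2 difference 3.18). Reads of such near-identical copies may be split between them, and the value is uncertain for that reason. It passed the limit through its hypoxia value alone. A further entry at the SLC2A1 locus, the noncoding SLC2A1-DT on the opposite strand, stood at 1.87 and 8.31 FPKM, 4.27-fold higher in hypoxia.

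The hexokinases trap glucose in the cell by phosphorylating it. HK1 is the widely expressed form and HK2 the form of muscle and fat that many tumours express, and both can bind the outer mitochondrial membrane. HK1 (chr10:71029756-71161637) stood at 42.4 FPKM in normoxia and 83.9 FPKM in hypoxia, 1.98-fold higher and so just under the 2-fold limit. HK2 (chr2:75059782-75120481) stood at 4.60 FPKM and 24.5 FPKM, a log2 difference of 2.39. Their sum was 47.0 FPKM in normoxia and 108 FPKM in hypoxia, a 2.31-fold ratio. HK2 had the wider fold but HK1 the larger gain in FPKM: HK1 gave 67.7% of the difference between the sums, and HK2 the rest. HK1 exceeded HK2 9.22 times in normoxia and 3.43 times in hypoxia, so that the share of HK2 was 9.78% and 22.6%. The more abundant hexokinase was the same in both conditions.

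GPI converts glucose phosphate to fructose phosphate and is the 1 gene of its step. GPI (chr19:34855645-34893318) stood at 36.7 FPKM in normoxia and 80.3 FPKM in hypoxia, a log2 difference of 1.13. Nearly all of it was the transcript NM_000175, at 36.4 and 79.0 FPKM, which made up 99.3% and 98.4% of the gene. NM_001289789 stood at 0.0952 and 1.02 FPKM, passing the limit through its hypoxia value alone, and NM_001289790 at 0.175 and 0.247 FPKM lay under it.

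Phosphofructokinase, which commits the sugar to glycolysis, is a tetramer of subunits named for liver (PFKL), muscle (PFKM) and platelets (PFKP). Their sum was 54.1 FPKM in normoxia and 82.6 FPKM in hypoxia, a 1.53-fold ratio and the lowest among the 4 steps with several members. PFKP (chr10:3109712-3178997) stood at 30.7 and 64.0 FPKM, 2.08-fold higher in hypoxia. PFKM stood at 21.3 and 14.98 FPKM, 1.42-fold lower in hypoxia (log2 difference -0.50). PFKL (chr21:45719925-45747261) was the lowest of all members in both conditions, at 2.14 and 3.64 FPKM (log2 difference 0.74). PFKP made up 56.7% of the sum in normoxia and 77.5% in hypoxia, PFKM 39.4% and 18.1%, and PFKL 3.96% and 4.41%. PFKP was thus 1.44 times PFKM in normoxia and 4.27 times in hypoxia, the order of the subunits being the same in both.

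PFKM was listed as 3 transcripts, of which 2 carried nearly all of it. NM_000289 stood at 9.99 and 7.77 FPKM (log2 difference -0.36) and NM_001166687 at 10.6 and 6.37 FPKM (-0.73), so that both major transcripts were lower in hypoxia. NM_001166686 stood at 0.673 and 0.843 FPKM. NM_001166687 was the more abundant in normoxia and NM_000289 in hypoxia, where it made up 51.9% of the gene. The table places PFKM in a stretch of chr12:48436681-48540187 that it shares with SENP1, a SUMO protease, and the SENP1 transcript NM_001267594 stood at 10.9 and 8.13 FPKM (-0.42). PFKP was almost entirely NM_002627, at 30.5 and 63.5 FPKM, with NM_001242339 at 0.172 and 0.485 FPKM.

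The aldolases split fructose bisphosphate into a pair of triose phosphates. ALDOA is the muscle and general form and ALDOC is best known from brain. ALDOC (chr17:26900133-26903951) stood at 8.66 FPKM in normoxia and 115 FPKM in hypoxia, a log2 difference of 3.72. ALDOA (chr16:30064411-30081741) stood at 50.4 and 89.7 FPKM, a log2 difference of 0.83. Together they came to 59.1 FPKM in normoxia and 205 FPKM in hypoxia, 3.47-fold, and ALDOC gave 73.1% of the difference. ALDOA was 5.82 times ALDOC in normoxia and 0.778 times in hypoxia, with no error on either ratio. ALDOC passed from 14.7% to 56.3% of the sum and was the most abundant member in hypoxia, a place that ALDOA held in normoxia.

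**Figure D3:**
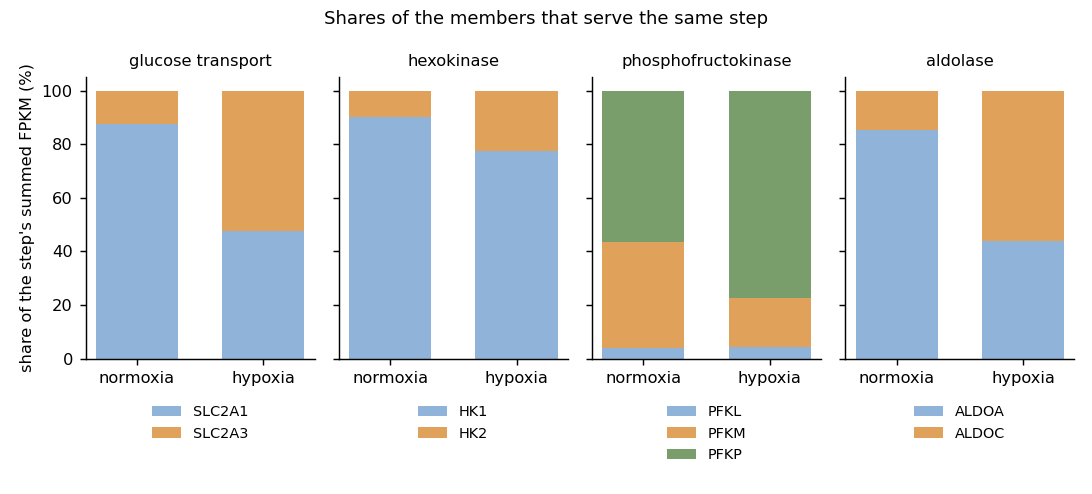
Share of each gene (percent, stacked bars) in the summed FPKM of the members that serve the same step, in normoxia and in hypoxia, from 1 pooled value each. SLC2A3 and ALDOC passed from 12.5% and 14.7% to 52.3% and 56.3% of their step, while HK1 and PFKP held the largest share in both conditions.

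The 4 listed ALDOA transcripts were all higher in hypoxia but by different amounts. NM_184043 stood at 24.5 and 54.9 FPKM (log2 difference 1.16), whereas NM_184041, equally abundant in normoxia at 24.6 FPKM, stood at 32.5 FPKM in hypoxia (0.40). Their shares of the gene were 48.7% each in normoxia and 61.2% and 36.2% in hypoxia. NM_001243177 stood at 0.908 and 1.58 FPKM and NM_001127617 at 0.391 and 0.785 FPKM. Transcripts of a gene share most of their exons, so that their FPKM values depend on how the authors' software divided the same fragments among them.

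Over all members, 16 of the 18 listed transcripts were higher in hypoxia and 2, both of PFKM, were lower. Of the 16 member transcripts whose mean FPKM reached 0.5, 14 (87.5%) were higher, against 42.6% of all transcripts that reached it. Among the 14, GPI NM_001289789 and ALDOA NM_001127617 reached the limit through their hypoxia value alone and so could only count as higher. Of these 16, 8 were at least 2-fold higher, against 3.70% of 18190 transcripts. Among the 8 is GPI NM_001289789, which reached the limit through its hypoxia value, and with a limit of 1 FPKM the count was 7. SLC2A1, SLC2A3, HK1, HK2, PFKL and ALDOC were each listed as 1 transcript (NM_006516, NM_006931, NM_000188, NM_000189, NM_002626 and NM_005165), and other transcripts of these genes were not analysed here.

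**Figure D4:**
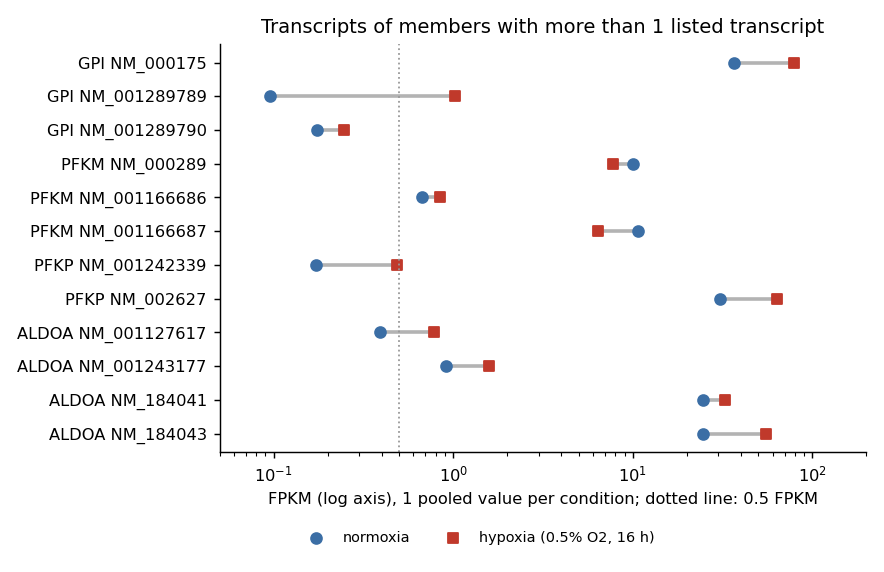
FPKM (log axis) in normoxia (circles) and in hypoxia (squares) for the transcripts of the 4 members listed with more than 1, with 1 pooled value per condition and a dotted line at 0.5 FPKM. The 2 abundant PFKM transcripts lie lower in hypoxia, and the 2 abundant ALDOA transcripts, level at about 24.5 FPKM in normoxia, lie apart in hypoxia.

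The order of levels differed between conditions. In normoxia it ran from ALDOA through HK1, GPI, PFKP, SLC2A1, PFKM, ALDOC, HK2 and SLC2A3 to PFKL, a 23.5-fold range. In hypoxia it ran from ALDOC through ALDOA, HK1, GPI, PFKP, SLC2A3, SLC2A1, HK2 and PFKM to PFKL, a 31.7-fold range. Which neighbours in these orders differ beyond their spread cannot be said from pooled values, and PFKP and SLC2A3 in hypoxia, at 64.0 and 63.2 FPKM, were nearly level. Of the 4 members lowest in normoxia, SLC2A3, HK2 and ALDOC had the widest differences and PFKL did not. The normoxia level enters both quantities, so that they are not independent.

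Other genes of sugar handling were described from 6 lists, chosen by their place in metabolism with earlier results of these data known. Of their 42 genes above the limit 6 were at least 2-fold higher, SLC2A14 among them, against 3.21% of all genes, and 0 were lower, against 2.62%. Among 8 other transporters of the SLC2A and SLC5A families above the limit, 6 were higher and 2 lower, with a median log2 difference of 0.19. Besides SLC2A14, SLC2A10 was at least 2-fold higher, at 0.538 and 1.498 FPKM (1.32). SLC2A12 stood at 5.71 and 10.4 FPKM (0.86). Of 3 other hexose kinases, HKDC1 was higher and ADPGK and KHK were lower, between -0.39 and 0.28, and HK3 was not analysed here.

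The regulators of phosphofructokinase held some of the widest differences outside the members. PFKFB3 and PFKFB4 make a regulatory isomer of fructose bisphosphate that activates phosphofructokinase, and stood at 4.18 and 27.4 FPKM (log2 difference 2.68) and at 0.828 and 10.5 FPKM (3.51). The third kinase above the limit, PFKFB2, stood at 14.3 and 17.0 FPKM (0.25). TIGAR, which breaks the activator down, stood at 4.06 and 3.07 FPKM (-0.39), and FBP1, which reverses the phosphofructokinase step in gluconeogenesis, at 6.92 and 4.88 FPKM (-0.50). PFKM thus differed by about as much as FBP1, in the same direction. The list's median over 5 genes was 0.25.

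Of 13 genes of lower glycolysis 7 were listed, all above the limit, with 5 higher, 2 lower and a median of 0.41. ENO2, the enolase of neurons, stood at 0.677 and 8.04 FPKM (3.39). TPI1, which interconverts the triose phosphates made by aldolase, stood at 1.65 and 5.12 FPKM (1.57), from NM_001258026 alone. Other TPI1 transcripts were not analysed here, so these values may not stand for the gene. PGAM1 (0.66) and PKM (0.25) were listed at far higher levels, 177 and 503 FPKM in normoxia, and LDHB stood at 1039 and 768 FPKM (-0.44). GAPDH, PGK1, ENO1 and LDHA were not analysed here, so that this list covers only part of the lower pathway.

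All 14 genes on the branches that leave the hexose phosphates lay above the limit, with 8 higher, 6 lower and a median of 0.19, and 0 of them reached a 2-fold difference. Over all genes 43.6% were higher and 3.21% at least 2-fold higher, so that a count of 0 among 14 is near that share. With equal sums 3 of the 14 were at least 2-fold higher, against 5.76% of all genes. PGM1, which leads to glycogen, stood at 42.5 and 79.7 FPKM (0.90) and GYS1, the glycogen synthase of muscle and other tissues, at 4.17 and 7.73 FPKM (0.87). Of the pentose phosphate pathway, TALDO1 stood at 80.5 and 59.8 FPKM (-0.43) and RPIA at 5.66 and 3.996 FPKM (-0.49), whereas PGD stood at 56.8 and 68.3 FPKM (0.26) and PGLS at 2.86 and 3.10 FPKM (0.11). Of 5 regulators of uptake and hexokinase, ARRDC4, an arrestin that lowers glucose uptake, stood at 9.85 and 16.4 FPKM (0.73). The other 4 were lower. MLXIP, which reached the limit through its normoxia value alone, stood at 0.814 and 0.435 FPKM (-0.77). The mitochondrial channels to which hexokinases bind were VDAC1 (-0.33), VDAC2 (-0.21) and VDAC3 (-0.23).

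**Figure D5:**
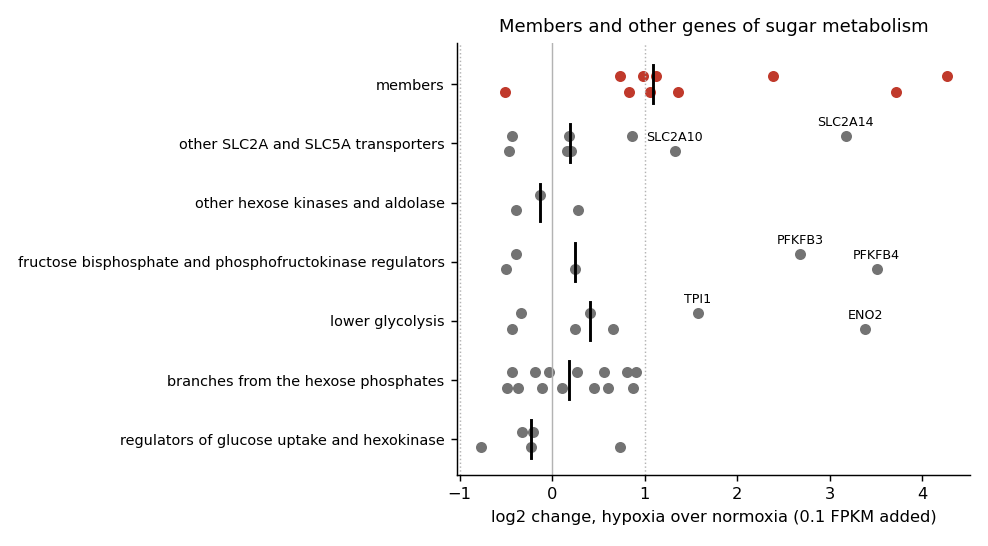
Log2 difference between hypoxia and normoxia (0.1 FPKM added) for the members (red) and the genes of 6 other lists (grey) whose mean FPKM reached 0.5, with a bar at each median and dotted lines at a 2-fold difference. The members' median is 1.09, and the medians of the other lists lie between -0.23 and 0.41.

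For each member at least 2-fold higher in hypoxia, the gene nearest in both log2 levels was sought over all genes, as the Euclidean distance over the 2 conditions. HK2 lay nearest CCNG2, a cyclin that restrains the cell cycle, at 4.45 and 25.4 FPKM (distance 0.072). SLC2A1 lay nearest GBE1, the glycogen branching enzyme, at 23.9 and 59.5 FPKM (0.11), and PFKP nearest HBP1, a transcriptional repressor, at 33.0 and 65.7 FPKM (0.11). GPI lay nearest WSB1, a ubiquitin ligase adaptor, at 40.5 and 85.4 FPKM (0.17). SLC2A3 and ALDOC had no neighbour as close: the nearest were EGLN3, a prolyl hydroxylase that marks HIF for destruction, at 4.38 and 68.1 FPKM (0.46), and ARRDC3, an arrestin, at 13.2 and 90.9 FPKM (0.70). Such nearness over 2 values is a description of levels only.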

How the data were processed

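Poly(A)-selected stranded libraries of 8 samples were sequenced, 4 in normoxia and 4 in hypoxia. Per the labels and the study's methods, the authors aligned the reads with STAR 2.3.0.1 to hg19 and ran Cuffdiff of Cufflinks 2.1.1 on RefSeq transcripts, and the deposited FPKM values are theirs, 1 per transcript and condition. Their fold changes, test statistics, p-values and q-values were not used. Groups came from the labels, of which the treatment text is the same for both. Symbols for 24289 entries (97.9%) came from RefSeq (GRCh38.p14). FPKM was summed per gene over listed transcripts, and differences were taken on log2(FPKM + 0.1). Features with a mean FPKM under 0.5 were left out of counts. No test or error could be had from 1 value per condition, and single-library counts and depths were not analysed here. The counting was tested on simulated data. The members and lists were chosen with earlier results of these data known. Genes named are the members, list genes past 2-fold or set beside a member, nearest genes, VEGFA and CA9. Genes of the lists within 2-fold were named after their values were seen. The values of some list genes are not reported here. Python 3.11.15, numpy 2.4.6, pandas 2.3.3 and matplotlib 3.10.9 were used, with pseudocount, FPKM limit, fold, scaling and transcript choice varied.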

Additional observations from a re-analysis of the deposited data

How the results depend on the processing

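The direction of each member's difference was the same with 1 FPKM or 0.01 FPKM added, equal sums, centring on the median gene, quantile normalization and the most abundant transcript alone. No FPKM limit, a limit of 1 FPKM and a fold of 1.5 bear on counts only. PFKM ranged from -0.51 to -0.28 and HK1 from 0.97 to 1.21. The members' median of 1.09 became 1.32 with equal sums and 1.30 with quantile normalization. Of 42 genes of the other lists, the 6 at least 2-fold higher (3.21% of all genes) became 10 with equal sums (5.76% of all genes) and 13 at a fold of 1.5 (9.94%), where the 0 lower became 1 (11.2%). On the branch list the 0 higher became 3 and 4. Adding entries with no symbol at member loci, chosen after seeing the data, left the 6 members past 2-fold at 6, took ALDOA from 0.83 to 0.87 and the member transcripts past 2-fold from 8 to 9. No paired analysis was possible because each condition was analysed as 1 pooled value, and no replicate could be left out for the same reason. Depth limits could not be given.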

Other observations

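An entry with no symbol in the reference used, NM_000034, lies at the ALDOA locus and stood at 1.23 FPKM in normoxia and 4.60 FPKM in hypoxia, 3.53-fold higher on the log2(FPKM + 0.1) scale. It was not counted with ALDOA. An entry with no symbol at the PFKL locus, NR_024108, stood at 0.108 and 0.151 FPKM.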
